A study of Mus musculus with 26 samples.

Results

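The genes described are markers of astrocytes and of the oligodendrocyte lineage, the glial cells of the brain. They were 33 genes listed by cell type: 17 of astrocytes, 3 of oligodendrocyte precursors and 13 of myelin and mature oligodendrocytes. Of the 17097 genes measured, 32 were among them, 16, 3 and 13 in the 3 classes, and Glul was not analysed here. A gene was read by its brightest probe set, the one with the highest mean over all 26 arrays among probe sets with a single gene symbol.

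Astrocytes take up glutamate, buffer potassium and water at blood vessels, and are joined by gap junctions. Oligodendrocyte precursors depend on the transcription factors Olig1 and Olig2 and on the growth factor receptor Pdgfra, and mature into cells that wrap axons in myelin, a membrane rich in galactolipid and in a small set of proteins. Many of the same astrocyte genes, Fabp7 and Slc1a3 among them, are also active in radial glia and neural progenitors, and Olig2 is widely expressed in glioma and in cultured neural progenitors.

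Messenger RNA was measured on Affymetrix HT MG-430 PM arrays in cells and tumors of a C57BL/6 mouse model of Group3 medulloblastoma, a cerebellar tumor. Every sample lacked Trp53 and Cdkn2c (both -/-), and all but 1 group also had Myc in the genotype label. The labels give no dose, time or route for the drugs, no age for the tumors, and no account of how Myc was introduced or of the host of the tumors. The study asked how pemetrexed, an antifolate, and gemcitabine, a nucleoside analogue, act on such tumors.

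The group without Myc in its genotype was the Trp53 Cdkn2c neurospheres (3 arrays), floating cultures that the labels class as granule neural progenitors and the design text dates to P7, postnatal day 7. The groups with Myc were Group3 neurospheres (7 arrays), untreated Group3 tumors (5), Group3 secondary tumors (3), and the drug-treated Group3 tumors, of which 2 had pemetrexed, 3 gemcitabine and 3 the pair of drugs. Array titles carry the code dka (12 arrays) or mmm (14), and groups were compared within a code. Under dka stood the Trp53 Cdkn2c neurospheres, Group3 neurospheres 1 to 3, untreated tumors 1 to 3 and the secondary tumors. Under mmm stood Group3 neurospheres 4 to 7, untreated tumors 4 and 5 and all drug-treated tumors. Numbers follow the order of deposit and pair nothing. Nothing in the labels says that arrays were separate animals or cultures, so p values measure spread between arrays only.

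Values are log2 intensities, on which a difference of 1 is a 2-fold change. Array medians lay between 4.65 and 4.82, and a value near or below that is close to the dim end of the array. The size of a difference whose lower side lies there may be understated. The values of mmm arrays ran from -0.41 to 16.11 and those of dka arrays from 2.56 to 13.86, so sizes under the codes are not on the same footing. Group3 neurosphere 7, an mmm array, ran from 2.64 to 13.73, and the counts for the comparisons that hold it are also given without it. It enters every other p through the pooled spread. Mycn lay between 12.38 and 15.35 on the 23 arrays with Myc in the genotype and between 4.46 and 4.82 in Trp53 Cdkn2c neurospheres, so Mycn separated the genotypes. Myc, the gene the genotype label names, did not: it lay between 6.93 and 9.48 on those 23 arrays and between 8.09 and 9.06 in Trp53 Cdkn2c neurospheres, and whether its probe set reads the introduced gene is not given in the sources used here. Cdkn2c lay between 3.28 and 4.80 on all arrays, at the dim end. The 12 granule neuron markers measured averaged 8.26 to 8.85 in Trp53 Cdkn2c neurospheres, against 4.70 to 4.98 in dka Group3 neurospheres.

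Promoters were read for the 27 of the 32 genes that RefSeq windows on GRCm38.p6 covered, as 33 windows of 300 bases, of which windows of 1 gene can overlap. The letters TGGGAA, the core read by the Notch effector RBPJ, stood on either strand in 16 windows (48.5%), of 15 genes, against 25.6% of all 32851 windows. ACAAAG, a SOX core, stood in 7 (21.2% against 18.7%) and ACAATG, another SOX core, in 4 (12.1% against 12.6%). The E-box CAGCTG was in 3 windows (9.09% against 16.3%) and the E-box CACGTG in 1 (3.03% against 7.15%). TTCCNGGAA, the STAT form, was in the windows of Aldoc and Gfap (6.06% against 1.15%), and the NFI palindrome was in none (0.037% of all windows). A match is a description of the letters and not a measured site.

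The 250 bases before the start are shown for 4 genes, chosen after their values and matches were seen, because they stand for the patterns described below. Olig2 and Fabp7 were high in the dka Group3 neurospheres. Gfap was below the array medians there and rose in mmm tumors, and Mobp was called higher in mmm tumors. Capitals mark the matches, all 10 of which read as the named letters on the strand opposite to the gene. Olig2 (chr16:91225300-91225549, plus strand) holds ACAATG at -68, counted from the start. Fabp7 (chr10:57784673-57784922, plus) holds TGGGAA at -249, and Gfap (chr11:102897201-102897450, minus) holds it at -115. Mobp (chr9:120149492-120149741, plus) holds TGGGAA at -238 and ACAAAG at -243, -231, -221, -198, -132 and -120, of which the match at -243 shares 1 base with TGGGAA.
Olig2: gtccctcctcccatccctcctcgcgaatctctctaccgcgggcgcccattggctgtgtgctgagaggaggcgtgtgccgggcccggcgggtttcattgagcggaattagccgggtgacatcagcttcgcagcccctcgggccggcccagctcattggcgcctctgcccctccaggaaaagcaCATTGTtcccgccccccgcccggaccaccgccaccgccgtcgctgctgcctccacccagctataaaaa
Fabp7: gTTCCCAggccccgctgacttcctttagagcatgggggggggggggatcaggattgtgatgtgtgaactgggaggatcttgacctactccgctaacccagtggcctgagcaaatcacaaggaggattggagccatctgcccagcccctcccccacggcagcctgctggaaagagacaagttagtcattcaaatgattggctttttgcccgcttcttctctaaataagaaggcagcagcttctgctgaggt
Gfap: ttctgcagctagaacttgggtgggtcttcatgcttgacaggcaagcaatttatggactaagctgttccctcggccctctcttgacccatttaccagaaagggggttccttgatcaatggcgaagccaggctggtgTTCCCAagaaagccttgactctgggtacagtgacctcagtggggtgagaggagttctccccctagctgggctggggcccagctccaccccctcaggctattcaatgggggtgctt
Mobp: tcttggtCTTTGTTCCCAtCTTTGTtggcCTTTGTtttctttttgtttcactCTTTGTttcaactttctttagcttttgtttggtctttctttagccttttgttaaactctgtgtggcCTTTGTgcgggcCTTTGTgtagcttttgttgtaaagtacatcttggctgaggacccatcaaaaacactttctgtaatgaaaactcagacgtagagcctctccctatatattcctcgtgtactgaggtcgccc

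**Figure D1:**
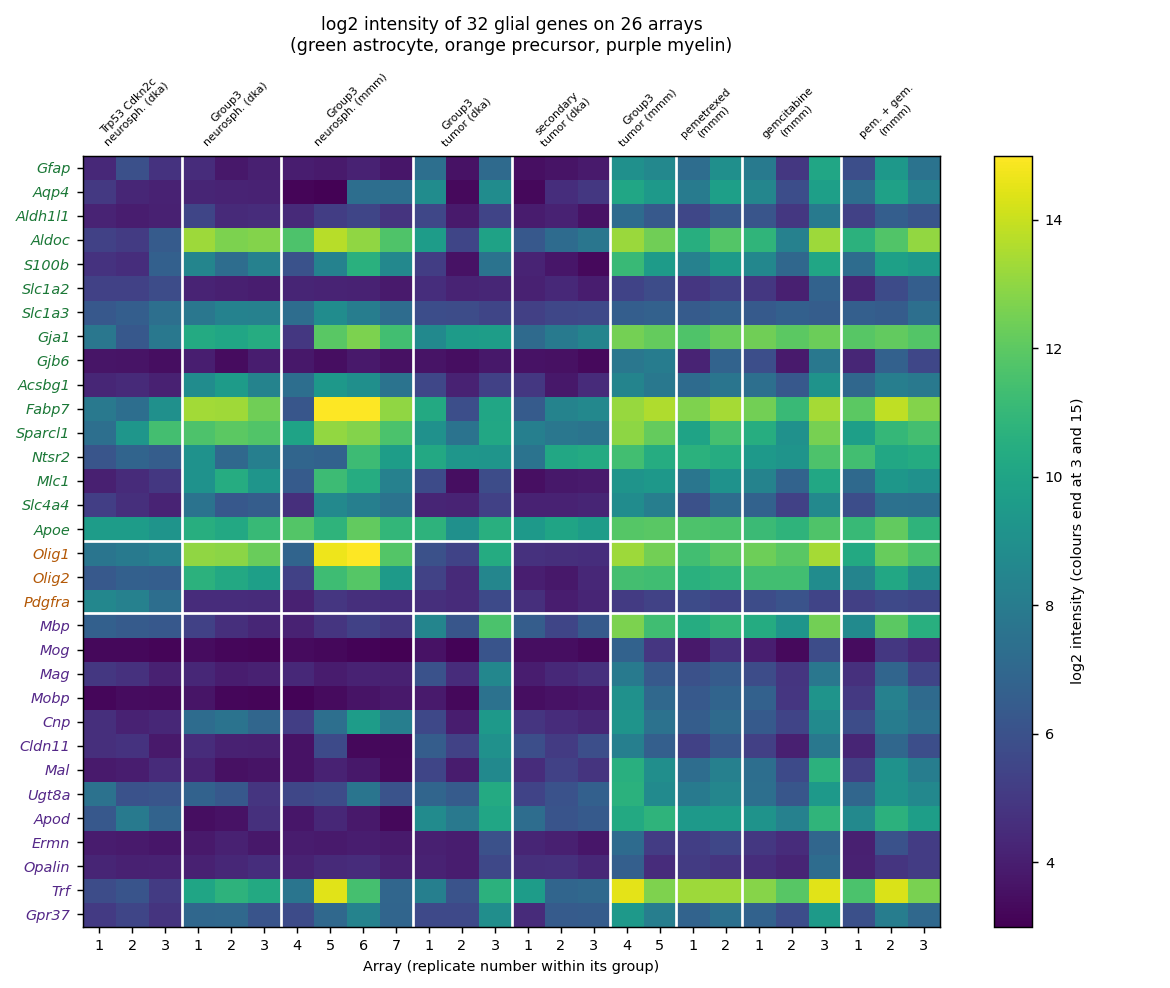
Each cell is the log2 intensity of 1 gene (rows: 16 astrocyte genes in green, 3 precursor genes in orange, 13 myelin genes in purple) on 1 of the 26 arrays (columns, numbered within their group), with colours that end at 3 and 15. Olig1, Olig2, Fabp7 and Aldoc are bright in the dka Group3 neurospheres, where Mog, Mobp and Mal are dark and Trf is bright, the myelin block is bright in mmm tumors and in dka tumor 3, and secondary tumors are dark in most rows.

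The glial genes fell into sets with different patterns over the arrays, shown in the map of all values. Only 9 of the 32 lay above their array's median on all 26 arrays. In dka Group3 neurospheres 11 of 16 astrocyte genes, 2 of 3 precursor genes and 4 of 13 myelin genes lay above the median on every array, and 4, 1 and 8 lay above it on none. In the mmm untreated tumors the counts above the median on both arrays were 16 of 16, 3 of 3 and 12 of 13. In secondary tumors they were 7, 0 and 5 on every array. In bulk samples such as these, fewer cells of a type and less RNA per cell cannot be told apart.

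The dka Group3 neurospheres had high values of Aldoc, Fabp7, Olig1 and Olig2, while Gfap, Aqp4, Mog, Mag and Mobp lay below the array medians there. Against Trp53 Cdkn2c neurospheres (3 dka arrays each), 8 of the 32 genes rose and 3 fell in the limma fit at a Benjamini-Hochberg adjusted p of 0.05, where 22.6% of all 17097 genes were called (13.4% higher and 9.22% lower). The median difference over the 32 genes was 0.94, beside 0.084 over all genes. By class, 5 astrocyte genes rose and 1 fell, 2 precursor genes rose and 1 fell, and 1 myelin gene rose and 1 fell.

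Aldoc, the aldolase isoform of astrocytes, stood at 5.32, 5.07 and 6.45 in Trp53 Cdkn2c neurospheres and at 13.26, 12.66 and 12.78 in Group3 neurospheres. The arrays of the groups lay far apart, and Aldoc rose by 7.28 (SE 1.08, limma adjusted p = 6.03e-05). Fabp7, a brain fatty acid binding protein of radial glia, stood at 7.86, 7.36 and 9.02 against 13.32, 13.30 and 12.39 and rose by 4.92 (SE 1.68, adjusted p = 0.0398). Mlc1, a membrane protein of perivascular astrocyte endfeet, stood at 4.06, 4.48 and 4.93 against 9.14, 10.41 and 9.25. Its lower side was at the array medians, and it rose by 5.11 (SE 1.0, adjusted p = 0.000888). Acsbg1, a fatty acyl-CoA synthetase, stood at 4.29, 4.42 and 4.08 against 8.85, 9.59 and 8.38, again from the dim end, and rose by 4.68 (SE 0.62, adjusted p = 1.99e-05). In none of these 4 genes did the arrays of the groups overlap. The share of all genes without overlap was not counted. Here and below, non-overlap is read from the same values as the calls and is no separate support for them.

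The glial glutamate transporters went in opposite directions. Slc1a3, the GLAST transporter, which progenitors share with astrocytes, stood at 6.32, 6.57 and 7.40 in Trp53 Cdkn2c neurospheres and at 7.78, 8.32 and 8.29 in Group3 neurospheres, and rose by 1.36 (SE 0.34, limma adjusted p = 0.00629). Slc1a2, the GLT-1 transporter of mature astrocytes, stood at 5.34, 5.32 and 5.81 against 4.18, 4.04 and 3.94, below the array medians, and fell by 1.43 (SE 0.51, adjusted p = 0.0474). The arrays overlapped for neither. Gfap, the intermediate filament of astrocytes, stood at 4.54, 3.75 and 4.07 in Group3 neurospheres and at 4.39, 5.95 and 4.76 in the others (difference -0.91, SE 1.05, adjusted p = 0.615). Aqp4, the water channel of endfeet, was at 4.14 to 4.25 in Group3 neurospheres, and Gjb6, another connexin gene, at 3.41 to 3.99.

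The precursor genes also split. Olig1 stood at 7.69, 7.95 and 8.22 in Trp53 Cdkn2c neurospheres and at 13.02, 12.90 and 12.26 in Group3 neurospheres, with no overlap, and rose by 4.77 (SE 1.45, limma adjusted p = 0.0218). Olig2, whose promoter is printed above, stood at 6.34, 6.68 and 6.59 against 10.69, 10.23 and 9.76 and rose by 3.69 (SE 1.20, adjusted p = 0.0313). Pdgfra, the receptor that drives precursor division and that is also found on fibroblasts, went the other way. It stood at 8.55, 8.30 and 7.32 against 4.52, 4.54 and 4.48, the last 3 at or below the array medians, and fell by 3.54 (SE 0.31, adjusted p = 1.30e-07). Pdgfra was also low in the mmm Group3 neurospheres, at 4.10 to 4.89 on the 4 arrays.

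Of the 13 myelin genes, the called pair were genes with wider expression. Trf, the transferrin gene, which oligodendrocytes and liver make, stood at 5.78, 6.12 and 5.11 in Trp53 Cdkn2c neurospheres and at 10.05, 10.77 and 10.31 in Group3 neurospheres, and rose by 4.71 (SE 1.46, limma adjusted p = 0.0241). Apod, an apolipoprotein of oligodendrocytes and fibroblasts, stood at 6.32, 7.91 and 6.81 against 3.43, 3.57 and 4.64, and fell by 3.13 (SE 0.64, adjusted p = 0.0012). Neither overlapped. Mbp, the myelin basic protein gene, differed by -1.74 (SE 0.98, adjusted p = 0.235). Mog, Mag, Mobp and Mal differed by between -0.45 and 0.043, with Mobp at 3.17 to 3.70 in Group3 neurospheres, and Cnp, an enzyme of myelinating cells present early in the lineage, by 2.88 (SE 1.12, adjusted p = 0.0732).

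**Figure D2:**
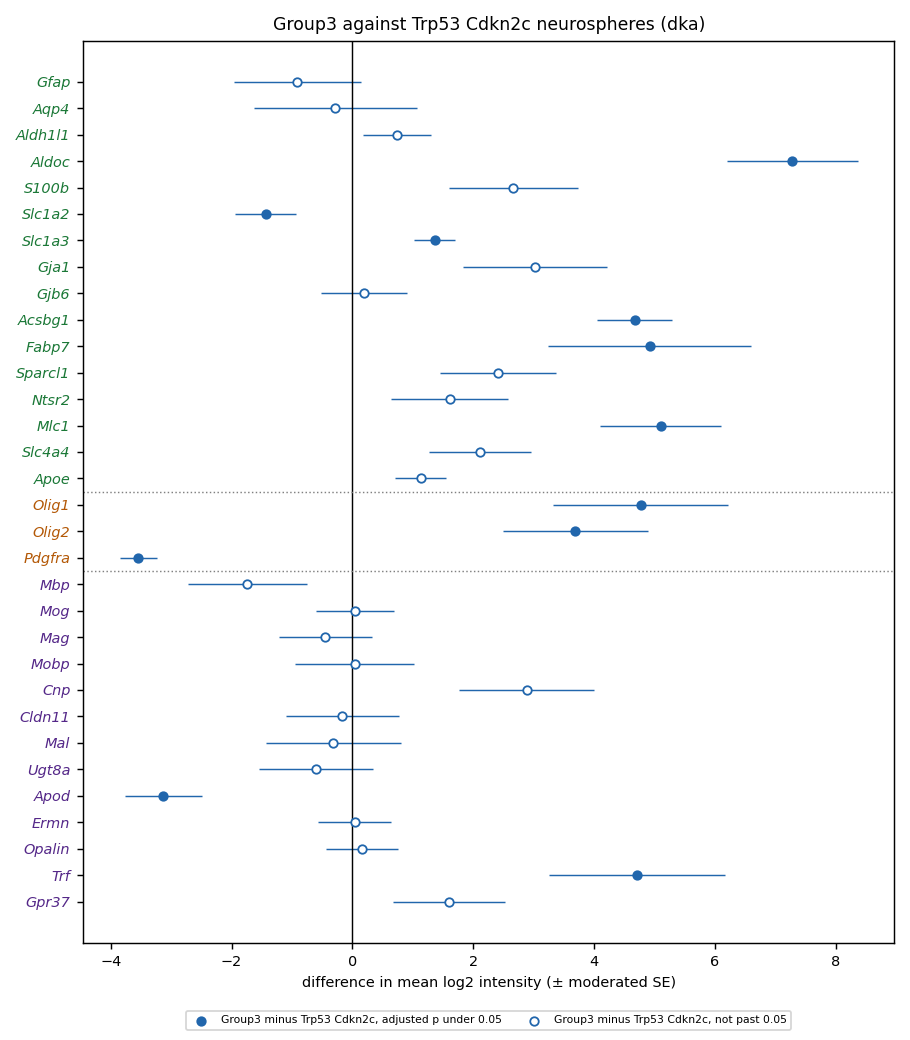
Points are the differences in mean log2 intensity between Group3 and Trp53 Cdkn2c neurospheres (3 dka arrays each) for the 32 genes, with moderated standard errors as bars, filled where the limma adjusted p was under 0.05. Aldoc stands furthest right at 7.28, Pdgfra at -3.54 and Apod at -3.13 stand left, and Mog, Mobp and Ermn lie near 0.

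Other genes of the same cell types, from lists chosen like the members with earlier results of these data known, were counted beside them. Of 41 other astrocyte genes 16 rose and 4 fell, with Tnc, an extracellular matrix glycoprotein of radial glia, up by 5.22, Plpp3, a lipid phosphatase, by 4.66 and Mfge8, a phagocytosis bridge protein, by 4.49. Gdf10 fell by 2.39, Cxcl14 by 2.21 and Nfib by 1.78. Of 12 genes of reactive astrocytes 4 rose, among them Cp at 4.86, Timp1 at 2.93 and Vim at 2.14. Of 14 other precursor genes 4 rose and none fell, with Ptprz1, a receptor phosphatase, at 4.86, Cspg5 at 3.92 and Nkx2-2 at 2.77. Of 28 other myelin genes 4 rose, among them Plekhb1 (4.77), Car2 (3.98) and Cryab (3.67), and 4 fell, among them Ppp1r14a (-3.59), Cntn2 (-3.44) and Tppp (-2.38). Cntn2 stands in the granule neuron list as well.

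Markers of other cells moved in this comparison too. The 16 microglia and macrophage genes averaged 5.78 to 6.27 in Trp53 Cdkn2c neurospheres and 3.85 to 3.95 in Group3 neurospheres, with 10 called lower. The granule neuron genes had 8 of 12 called lower, the endothelial and pericyte genes 4 of 15, and the meningeal and matrix list 1 of 8, which was Pdgfra itself. Their part in the glial values was not tested. The count of called members was 6 without Trp53 Cdkn2c neurosphere 1 or Group3 neurosphere 2, 7 without Trp53 Cdkn2c neurosphere 2 or Group3 neurosphere 1 or 3, and 8 without Trp53 Cdkn2c neurosphere 3. Fabp7 (limma adjusted p from 0.0549 to 0.115), Olig2 (0.056 to 0.0901) and Slc1a2 (0.0796 to 0.142) lost their call whichever of the 6 arrays was left out. Olig1 (0.0552 to 0.064) lost it without either neurosphere 1 or either neurosphere 2. Trf (0.0584 to 0.0727) lost it without Trp53 Cdkn2c neurosphere 1 or 3 or Group3 neurosphere 2 or 3. The spread behind every p was pooled over the groups of both codes, so these p values also carry spread among mmm arrays. In a fit of the dka arrays alone, Fabp7, Olig2, Slc1a2, Olig1 and Trf each kept their call.

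The values of the mmm Group3 neurospheres spread more widely than those of the dka ones. The mmm arrays had a wider range of values and neurosphere 7 a range like the dka arrays. Spreads under the codes are therefore not on the same footing. Olig1 was 6.88, 14.71, 14.99 and 11.77 on arrays 4, 5, 6 and 7, Olig2 was 5.32, 11.27, 11.85 and 9.54, and Fabp7 was 6.22, 15.35, 15.99 and 12.99. Array 4 was low for all 3 genes, and for Gja1, a gap junction connexin gene, which was 4.93 there and 11.36 to 12.63 on the other mmm arrays. The 16 astrocyte genes averaged 6.42 on array 4 and 8.17 to 9.32 on the others, while Aldoc (11.66, 13.72, 13.02 and 11.72) and Apoe, the apolipoprotein E gene (11.80, 10.82, 12.13 and 10.94), stayed high on all 4. Aqp4 was 3.15, 3.09, 7.33 and 7.32, so it lay above the median on arrays 6 and 7 and below it on arrays 4 and 5.

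**Figure D3:**
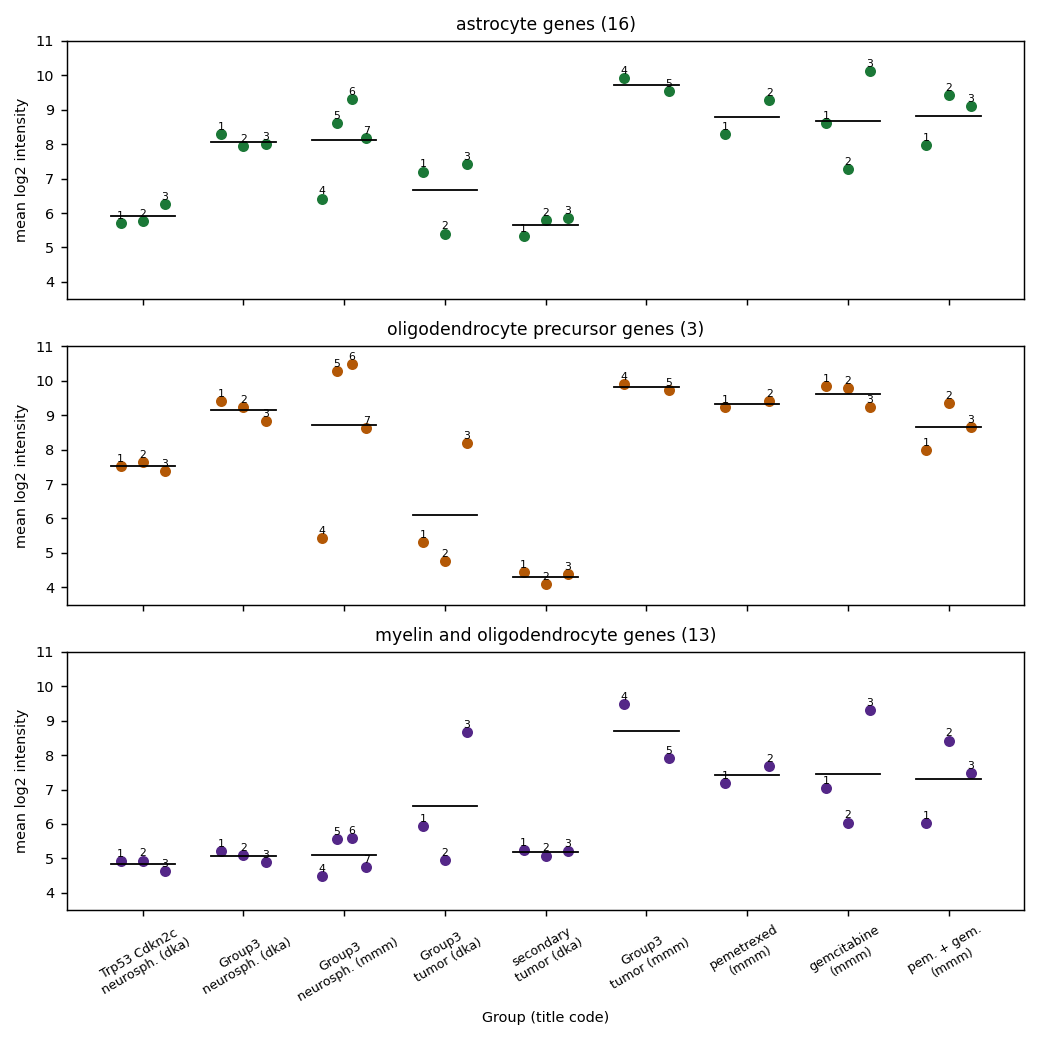
Each point is the mean log2 intensity of the 16 astrocyte, 3 precursor or 13 myelin genes on 1 array, labelled with its replicate number, and the line is the mean of the group under its title code. Precursor means run from 4.11 in a secondary tumor to 10.49 in mmm Group3 neurosphere 6, and myelin means spread from 4.95 to 8.66 within the dka tumors and from 6.04 to 9.31 within the gemcitabine tumors.

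Untreated Group3 tumors were set against Group3 neurospheres within each code. Some myelin genes rose under both codes, 3 under dka and 9 under mmm. Aldoc, Mlc1, Acsbg1, Olig1 and Olig2 fell under dka and did not pass under mmm, where Gfap, Aqp4, Gjb6 and Aldh1l1 rose. Slc1a3 fell under both, though its mmm call was lost in a fit of the mmm arrays alone. Under dka (3 tumors and 3 neurospheres) 3 of the 32 genes rose and 7 fell, with 18.6% of all genes called (8.81% higher and 9.74% lower), and the median difference was 0.070 beside 0.0046 over all genes. Under mmm (2 tumors and 4 neurospheres) 13 rose and 1 fell, with 22.1% of all genes called (10.6% higher and 11.5% lower), and the median was 1.92 beside -0.046. The dka comparison shares its neurospheres with the comparison of neurosphere genotypes, so a gene high in those 3 arrays tends to rise in one and fall in the other.

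The myelin genes that rose under both codes were Mbp, Cldn11 and Apod. Mbp stood at 5.32, 4.63 and 4.27 in dka neurospheres and at 8.48, 6.20 and 11.58 in dka tumors, and at 4.17, 4.83, 5.31 and 4.96 in mmm neurospheres and 12.64 and 11.33 in mmm tumors. All tumors lay above all neurospheres of their code, and the neurospheres were at the dim end. Mbp rose by 4.01 (SE 0.98, limma adjusted p = 0.00719) under dka and by 7.16 (SE 1.04, adjusted p = 8.86e-05) under mmm. Apod stood at 8.79, 7.85 and 10.09 in dka tumors and 10.29 and 10.78 in mmm tumors, and at 3.73, 4.31, 3.80 and 3.26 in mmm neurospheres. It rose by 5.03 (SE 0.64, adjusted p = 2.59e-05) and 6.76 (SE 0.67, adjusted p = 2.02e-06) without overlap. Cldn11, the tight junction claudin of the myelin sheath, stood at 4.52, 4.10 and 4.06 in dka neurospheres and at 6.54, 5.37 and 9.07 in dka tumors, and at 3.57, 5.69, 3.28 and 3.24 in mmm neurospheres and 8.18 and 6.65 in mmm tumors. It rose by 2.77 (SE 0.93, adjusted p = 0.0444) and 3.47 (SE 0.99, adjusted p = 0.0159), also without overlap.

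Further genes of compact and mature myelin passed under mmm. Mal, a raft protein of myelin, stood at 3.58, 4.16, 3.78 and 3.30 in neurospheres and at 10.55 and 8.93 in tumors, and rose by 6.04 (SE 1.18, limma adjusted p = 0.0012). Mobp, a basic protein of the dense line of myelin whose promoter is printed above, stood at 3.12, 3.34, 3.65 and 3.82 against 9.06 and 7.06 and rose by 4.58 (SE 1.05, adjusted p = 0.00381). One of the 3 other Mobp probe sets had the opposite sign and was not called. Ugt8a, the enzyme that makes the galactolipid of myelin, stood at 5.57, 5.76, 7.67 and 6.08 against 10.68 and 8.76 and rose by 3.45 (SE 1.0, adjusted p = 0.0179). Mag, an adhesion molecule between myelin and axon, stood at 4.40, 3.89, 4.17 and 4.09 against 7.93 and 6.36 and rose by 3.01 (SE 0.82, adjusted p = 0.0125).

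Mog, a glycoprotein of the outer myelin surface, stood at 3.36, 3.24, 3.13 and 2.98 in mmm neurospheres and at 6.76 and 4.91 in mmm tumors, and rose by 2.65 (SE 0.68, limma adjusted p = 0.00823). Ermn, a cytoskeletal protein of late oligodendrocytes, stood at 3.91, 3.85, 3.96 and 3.88 against 7.18 and 5.14 and rose by 2.26 (SE 0.64, adjusted p = 0.0146). In all of these 6 genes the arrays of tumors and neurospheres did not overlap, tumor 4 was the higher tumor, and the neurospheres other than those of Ugt8a lay at or below the array medians, so sizes may be understated. Under dka the same 6 genes differed by between 0.80 and 2.25 and none passed. Trf, at 7.65, 14.44, 11.47 and 6.95 in mmm neurospheres and 14.51 and 12.69 in tumors, spread too widely to pass (3.47, SE 1.55, adjusted p = 0.119).

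The dka tumors differed widely in these genes. All 13 myelin genes were highest in tumor 3 and lowest in tumor 2, and their means on tumors 1, 2 and 3 were 5.95, 4.95 and 8.66. Mobp was 3.86, 3.28 and 7.53, Mal was 5.50, 3.90 and 8.71, Cnp was 5.62, 3.95 and 9.46, and Olig2 was 5.35, 4.43 and 8.50. Tumor 2 lay within the range of the dka neurospheres for Mobp and Mal and was the lowest of the 3 for 29 of the 32 genes. Tumor 3 was also highest for the 8 meningeal and matrix genes (mean 7.48, against 5.28 and 5.70) and for the 15 endothelial and pericyte genes (6.78, against 5.55 and 5.38). The 6 Schwann cell genes, markers of myelin outside the brain, averaged 4.71, 4.83 and 5.27. The part of any of these cells in the myelin signal was not tested.

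Among the astrocyte genes 4 rose and 1 fell under mmm. Gfap stood at 3.94, 3.89, 4.15 and 3.73 in mmm neurospheres and at 9.01 and 8.62 in mmm tumors, and rose by 4.89 (SE 1.11, limma adjusted p = 0.00372). Aqp4 was 10.11 and 9.47 in mmm tumors, against 3.15 to 7.33 in neurospheres, and rose by 4.57 (SE 1.44, adjusted p = 0.0272). Gjb6 was 7.74 and 8.03 against 3.80, 3.46, 3.83 and 3.53 and rose by 4.24 (SE 0.76, adjusted p = 0.000559). Aldh1l1, a folate enzyme used as a pan-astrocyte marker, was 7.20 and 6.35 against 4.42, 5.16, 5.50 and 4.81 and rose by 1.80 (SE 0.60, adjusted p = 0.037). Slc1a3 was 6.58 and 6.72 against 7.30, 8.85, 8.11 and 7.23 and fell by 1.22 (SE 0.36, adjusted p = 0.0198). None of these 5 overlapped, and the neurosphere values of Gfap and Gjb6 lay below the array medians.

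Under dka no astrocyte gene rose. Aldoc was 9.63, 5.49 and 9.90 in dka tumors and fell by 4.56 (SE 1.08, limma adjusted p = 0.0056) from its neurosphere values. Mlc1 was 5.74, 3.42 and 5.80 and fell by 4.61 (SE 1.0, adjusted p = 0.00296), and Acsbg1 was 5.57, 4.17 and 5.34 and fell by 3.91 (SE 0.62, adjusted p = 0.000206). These are genes that were high in dka Group3 neurospheres, and tumor 2 was lowest for each. Sparcl1, a synapse-promoting matrix protein of astrocytes, was 9.07, 7.56 and 10.21 against 11.66, 11.96 and 11.74 and fell by 2.84 (SE 0.96, adjusted p = 0.0454). Slc1a3 was 5.83, 5.79 and 5.52 and fell by 2.41 (SE 0.34, adjusted p = 7.11e-05), with tumors closely grouped. Olig1 was 5.98, 5.44 and 10.37 and fell by 5.46 (SE 1.45, adjusted p = 0.012), and Olig2 fell by 4.14 (SE 1.20, adjusted p = 0.0203). In all 7 genes the dka tumors lay below the dka neurospheres without overlap, while Gfap (7.40, 3.58 and 7.16) and Aqp4 (8.83, 3.32 and 8.82) lay above the neurospheres in tumors 1 and 3 and below them in tumor 2.

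The difference between the codes was tested as an interaction, the mmm difference minus the dka difference. It was positive for all 32 genes, with a median of 2.37 beside -0.034 over all genes, and it passed for 4, where 9.17% of all genes were called (4.36% higher and 4.80% lower). Gjb6 differed by 4.41 (SE 1.04, limma adjusted p = 0.0148), from 4.24 under mmm and -0.18 under dka, where its tumors read 3.63, 3.44 and 3.75. Olig2 differed by 6.00 (SE 1.75, adjusted p = 0.0381), from 1.87 and -4.14, with mmm tumors at 11.40 and 11.32. Mlc1 differed by 4.80 (SE 1.46, adjusted p = 0.0452), from 0.19 and -4.61, with mmm tumors at 9.21 and 9.39. Acsbg1 differed by 3.70 (SE 0.91, adjusted p = 0.018), from -0.21 and -3.91, with mmm tumors at 8.42 and 7.78.

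Means of the Group3 neurospheres were close between the codes, and means of the untreated tumors were not. Over all probe sets the mean of dka Group3 neurospheres and the mean of mmm neurospheres 4 to 6 differed by an SD of 0.13, less than single arrays differed from their own group's mean (0.26 to 0.31 under dka and 0.35 to 0.52 under mmm), while the means of the dka and mmm tumors differed by 0.87. Neurosphere 7, which enters the mmm and interaction comparisons, differed from the mean of mmm neurospheres 4 to 6 by an SD of 0.57. How the deposited values of the codes were set against each other is not given in the sources used here. The closeness of the neurosphere means therefore cannot be read as likeness of the cultures. Code and any difference between the tumors themselves cannot be told apart. No call of the 4 stood without tumor 4 or tumor 5. The count was 2 without neurosphere 7, 1, 2 or 3 or tumor 1 or 2, 9 without neurosphere 5 and 11 without tumor 3.

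**Figure D4:**
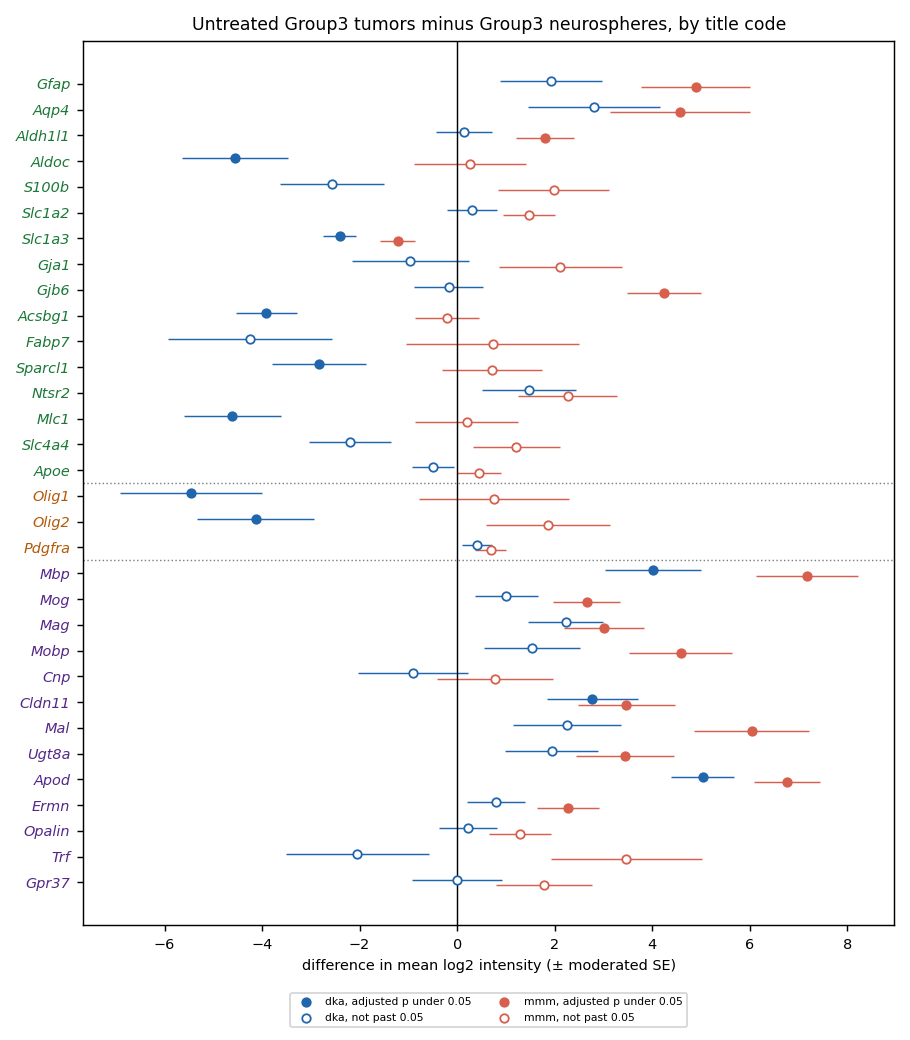
Points are the differences in mean log2 intensity between untreated Group3 tumors and Group3 neurospheres, under dka (blue, 3 against 3 arrays) and mmm (red, 2 against 4), with moderated standard errors as bars and filled points where the limma adjusted p was under 0.05. For every gene the red point lies right of the blue one, and Olig1, at -5.46 and 0.76, is the furthest apart.

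Other genes of the same lists were counted as well. Under mmm 10 of 41 other astrocyte genes rose, among them Clu at 5.78, Pla2g7 at 5.22 and the potassium channel gene Kcnj10 at 3.42, and 3 fell (Mfge8 -2.80, Bcan -2.75 and Rgma -2.48). Under dka 1 rose (Nfib, 0.91) and 13 fell, among them Tnc at -4.20, Bcan at -3.83 and Plpp3 at -3.74. Of 14 other precursor genes 4 fell under dka, among them Ptprz1 at -5.02, Cspg5 at -3.75 and Vcan at -2.93, and under mmm Tnr rose by 2.82 and Vcan fell by 2.55. Of 28 other myelin genes 4 rose under dka (Ppp1r14a 6.38, Cntn2 2.25 and Cdk18 1.89 among them) and 8 under mmm (Evi2a 4.14, Cntn2 3.68 and Ppp1r14a 3.42 among them), and none fell under either. Cntn2 is also counted among the granule neuron genes below. Of 12 reactive astrocyte genes Lcn2 (3.40) and Hspb1 (2.44) rose and Cp, Vim and Nes fell under dka, and 4 rose and 1 fell under mmm.

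Markers of other cell types were also higher in tumors. The 16 microglia and macrophage genes averaged 5.93 to 6.38 in dka tumors and 7.76 and 7.90 in mmm tumors, against 3.77 to 4.02 in the neurospheres of both codes, with 10 called higher under dka and 16 under mmm. The 15 endothelial and pericyte genes had 14 and 10 called higher, and averaged 5.38 to 6.78 and 5.86 to 6.08 in tumors against 4.03 to 4.16 in neurospheres. The 12 granule neuron genes had 7 and 8 called higher, with means of 7.54 to 7.68 and 8.30 to 8.41 in tumors against 4.30 to 6.23 in neurospheres. The 8 meningeal and matrix genes had 4 and 2 called higher, with means of 5.28 to 7.48 and 6.28 to 6.97 against 4.18 to 5.14. The 16 genes of other neurons had 4 higher and 1 lower under dka and 11 higher under mmm, with means of 5.25 to 5.64 and 7.12 to 7.92 in tumors. Their part in the glial differences was not tested.

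These counts changed when single arrays, tumors or neurospheres, were left out. Without tumor 4 or 5 only 1 mmm tumor was left, so a call lost there need not come from the tumor removed. Without neurosphere 7, 13 genes were called under mmm, all of them among the 14. Under mmm 4 genes were called without tumor 4, and Gfap (limma adjusted p = 0.0505), Mobp (0.101), Mag (0.209), Cldn11 (0.209), Mog (0.22), Ugt8a (0.255) and Ermn (0.349) lost their call without it. Aldh1l1 (0.0698 to 0.311) lost its call without tumor 4 or 5 or neurosphere 4 or 7, Aqp4 (0.0653 to 0.18) without tumor 4 or 5 or neurosphere 4 or 5, and Slc1a3 (0.0973 to 0.147) without tumor 4 or 5. Under dka the count was 6 without tumor 1. Olig1 (0.0593 to 0.0639) lost its call without tumor 1 or 2, and Olig2 (0.0542 to 0.102) without tumor 1 or 2 or neurosphere 1 or 2. Cldn11 (0.0729 to 0.238) lost it without tumor 1 or 3 or any neurosphere, and Sparcl1 (0.0864 to 0.192) without tumor 1 or 2 or any neurosphere.

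Set against the Trp53 Cdkn2c neurospheres instead, the dka tumors had few called glial genes. Of the 32 genes 2 rose and 2 fell, where 15.6% of all genes were called (9.15% higher and 6.45% lower), a share of members no higher than that background, with a median difference of 0.95 beside 0.081. Ntsr2, a neurotensin receptor enriched in astrocytes, stood at 6.15, 6.85 and 6.54 in Trp53 Cdkn2c neurospheres and 10.23, 9.30 and 9.24 in tumors, and rose by 3.08 (SE 0.96, limma adjusted p = 0.0346) without overlap. Pdgfra, at 4.62, 4.46 and 5.68 in tumors, fell by 3.14 (SE 0.31, adjusted p = 1.13e-06). Slc1a3 fell by 1.05 (SE 0.34, adjusted p = 0.0425), and Apod rose by 1.90 (SE 0.64, adjusted p = 0.049) with overlapping arrays. Olig1 and Olig2, called higher in dka Group3 neurospheres than in Trp53 Cdkn2c neurospheres, differed here by -0.69 (SE 1.45) and -0.44 (SE 1.20). All 13 myelin genes had positive differences, of which Apod alone passed. These tumor arrays also enter the dka comparison with Group3 neurospheres.

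Of those 4 calls Pdgfra kept its own whichever array was left out, and the other 3 did not. The count was 1 without tumor 1 or 3 or Trp53 Cdkn2c neurosphere 3, 2 without Trp53 Cdkn2c neurosphere 1 or 2, and 7 without tumor 2. Ntsr2 (limma adjusted p from 0.0592 to 0.118) lost its call whichever array was left out. Slc1a3 (0.0687 to 0.206) kept it only without Trp53 Cdkn2c neurosphere 1, and Apod (0.0949 to 0.22) lost it without tumor 1 or 3 or Trp53 Cdkn2c neurosphere 1 or 3. Among the other genes, 5 of 28 myelin genes rose, with Pllp at 2.89, Ppp1r14a at 2.80 and Gsn at 2.60, and 2 of 41 astrocyte genes rose and 4 fell.

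In secondary tumors the 3 precursor genes lay near or below the array medians, and 7 of 16 astrocyte genes lay above the median on every array. Every one of the 32 genes had a lower mean in secondary than in primary dka tumors, with a median difference of -1.13 beside -0.048 over all genes. None passed in limma, where 0.538% of all genes were called (0.263% higher and 0.275% lower), and 5 had an unadjusted p under 0.05. Apod was 7.28, 6.13 and 6.38 in secondary tumors, below all 3 primary tumors (difference -2.31, SE 0.64, adjusted p = 0.106). Mbp was 6.56, 5.49 and 6.39 (-2.60, SE 0.98, adjusted p = 0.261), Mag 3.97, 4.37 and 4.67 (-2.03, SE 0.78, adjusted p = 0.268), and Gfap 3.47, 3.63 and 3.89 (-2.38, SE 1.05, adjusted p = 0.348). For these 3 genes the secondary tumors overlapped the primary ones through primary tumor 2. The myelin means were 5.08 to 5.25 in secondary tumors, inside the primary range of 4.95 to 8.66, and the precursor means 4.11 to 4.44, below the primary range of 4.77 to 8.18. The microglia list went the other way, with all 16 genes higher in secondary tumors (means 6.02 to 7.40), none of them called and 3 at an unadjusted p under 0.05, and all 8 meningeal and matrix genes were lower. Their part in the glial values was not tested.

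Against dka Group3 neurospheres, which the dka primary tumors were also compared with, 10 of the 32 genes fell and 1 rose in secondary tumors, where 24.6% of all genes were called (10.2% higher and 14.5% lower). The median difference was -0.68 beside -0.0099. Olig1 was 4.70, 4.62 and 4.57 in secondary tumors, at the array medians, and fell by 8.10 (SE 1.45, limma adjusted p = 0.000404). Olig2 was 4.02, 3.77 and 4.34 and fell by 6.19 (SE 1.20, adjusted p = 0.000797). These sizes may be understated, since the secondary tumors lie at the dim end.

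Of the 16 astrocyte genes 8 fell and none rose. Mlc1 was 3.48, 3.79 and 3.87 and fell by 5.88 (SE 1.0, limma adjusted p = 0.000254), Aldoc was 6.32, 7.20 and 7.73 and fell by 5.82 (SE 1.08, adjusted p = 0.000545), and Acsbg1 was 4.92, 3.77 and 4.46 and fell by 4.56 (SE 0.62, adjusted p = 3.06e-05). Fabp7 was 6.43, 8.38 and 8.58 and fell by 5.21 (SE 1.68, adjusted p = 0.0278). S100b, a calcium-binding protein of astrocytes and oligodendrocytes, was 4.19, 3.75 and 3.31 against 8.48, 7.27 and 8.26 and fell by 4.26 (SE 1.07, adjusted p = 0.00604). Sparcl1 was 8.16, 7.77 and 7.64 and fell by 3.93 (SE 0.96, adjusted p = 0.005), and Slc1a3 was 5.29, 5.56 and 5.64 and fell by 2.63 (SE 0.34, adjusted p = 1.84e-05). None of these overlapped the neurospheres. Gja1 differed by -2.47 (SE 1.19, adjusted p = 0.147) and Ntsr2 by 1.25 (SE 0.96, adjusted p = 0.401), and neither passed.

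Slc4a4, a sodium bicarbonate cotransporter, was 4.16, 4.17 and 4.22 in secondary tumors against 7.55, 6.31 and 6.54 and fell by 2.62 (SE 0.84, limma adjusted p = 0.0275). One of its 3 other probe sets had the opposite sign and was not called. Apod rose by 2.72 (SE 0.64, adjusted p = 0.00357). Slc4a4 and Apod did not overlap the neurospheres either. Fabp7 (0.0711 to 0.102) lost its call without neurosphere 1 or 2 or secondary tumor 1, and Slc4a4 (0.0512 to 0.105) without any 1 array other than neurosphere 2. Among the wider lists 18 of 41 astrocyte genes fell (Tnc -5.32, Bcan -5.24 and Ndrg2 -4.79 among them) and 5 of 14 precursor genes fell (Ptprz1 -6.90, Vcan -4.89 and Cspg5 -4.14 among them). Of 28 myelin genes 3 rose (Ppp1r14a 5.99, Ndrg1 2.36, Evi2a 1.70) and 4 fell, among them Plekhb1 (-4.88), Car2 (-3.91) and Cryab (-3.49).

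Drug-treated tumors were compared with mmm tumors 4 and 5, and these 3 comparisons share those arrays. Almost every one of the 32 genes had a lower mean in each treated group, and none passed in limma. The 12 reactive astrocyte genes did not share this, with 10, 8 and 6 higher means after pemetrexed, gemcitabine and both, and medians of 0.17, 0.075 and 0.055. Of 14 other precursor genes 6, 5 and 4 had higher means. Pemetrexed (2 tumors) gave 31 lower means of 32 and a median difference of -0.93 beside 0.047 over all genes. Gemcitabine (3 tumors) gave 31 of 32 and -1.06 beside 0.053, and both drugs (3 tumors) gave 30 of 32 and -1.23 beside 0.028. The shares of all genes called were 0%, 0% and 0.0760% (0.0526% higher and 0.0234% lower), and 1, 1 and 2 members had an unadjusted p under 0.05. Since the 2 untreated tumors enter all 3, the like medians are not independent of each other.

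Gjb6 had the smallest unadjusted p in all 3. It was 7.74 and 8.03 in untreated tumors, 4.20 and 6.82 after pemetrexed, 5.90, 3.87 and 7.78 after gemcitabine, and 4.28, 6.74 and 5.55 after both. Every treated tumor but gemcitabine tumor 3 lay below both untreated ones. The differences were -2.38 (SE 0.87, limma adjusted p = 1.0), -2.04 (SE 0.80, adjusted p = 0.503) and -2.36 (SE 0.80, adjusted p = 0.47). Mog was 6.76 and 4.91 untreated, 3.82 and 4.64 after pemetrexed, 3.99, 3.31 and 5.78 after gemcitabine and 3.39, 4.96 and 4.38 after both, with differences of -1.60 (SE 0.79), -1.48 (SE 0.72) and -1.59 (SE 0.72). Sparcl1 differed by -1.83 (SE 1.18), -1.88 (SE 1.08) and -1.83 (SE 1.08).

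Myelin genes varied widely within the treated groups. All 13 were lowest in gemcitabine tumor 2 and highest in gemcitabine tumor 3, whose means of 6.04 and 9.31 enclose tumor 1 at 7.04. After both drugs all 13 were lowest in tumor 1, and the means were 6.03, 8.42 and 7.47. The pemetrexed tumors averaged 7.20 and 7.67, and the untreated ones 9.47 and 7.91. Mal, for example, was 10.55 and 8.93 untreated, 7.35, 5.70 and 10.73 after gemcitabine and 5.26, 9.14 and 8.08 after both. Mbp was 10.45 and 10.94 after pemetrexed, 10.38, 9.26 and 12.44 after gemcitabine and 8.72, 11.96 and 10.56 after both. The treated ranges after gemcitabine and after both drugs overlapped the untreated tumors in each of these genes.

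Astrocyte means followed the same tumors: 8.61, 7.26 and 10.11 after gemcitabine, 7.98, 9.41 and 9.10 after both, 8.29 and 9.28 after pemetrexed, and 9.91 and 9.53 untreated. Gja1 stayed between 11.68 and 12.49 on all 10 mmm tumors. Pdgfra was the precursor gene with positive differences in all 3 comparisons (0.35, 0.54 and 0.24), at 5.26 to 6.08 after treatment against 5.08 and 5.38. Olig2 was 8.85 in gemcitabine tumor 3, which had the highest myelin mean of the gemcitabine tumors, and 11.36 and 11.35 in gemcitabine tumors 1 and 2. After both drugs it was 8.43, 10.19 and 8.87 (difference -2.20), below both untreated tumors.

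Neuronal markers moved with the glial ones. The 16 genes of other neurons averaged 7.92 and 7.12 in untreated tumors, 5.65 and 6.66 after pemetrexed, 5.64, 4.70 and 7.84 after gemcitabine and 5.39, 6.71 and 6.50 after both, with 16, 15 and 16 lower means and none called. Gemcitabine tumors 2 and 3 were the lowest and highest here too. The microglia list averaged 6.82 to 8.08 over the treated tumors and 7.76 and 7.90 untreated. After pemetrexed, gemcitabine and both, 5, 2 and 1 of its 16 genes had higher means. Of 15 endothelial and pericyte genes 6, 7 and 1 had higher means, and of 12 granule neuron genes 3, 3 and 1. The 8 meningeal and matrix genes had 6, 4 and 3 higher means. None of these genes was called. The part of other host cells in the glial values of treated tumors was not tested. With arrays weighted by their agreement with their group, 12 members were called after gemcitabine (11 lower and Pdgfra higher), where 22.9% of all genes were called. In that fit gemcitabine tumor 3 had a weight of 0.28 and gemcitabine tumor 1 a weight of 5.07. Without gemcitabine tumor 3 in the unweighted fit 1 member was called.

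No difference between the treatments passed for a glial gene. Against gemcitabine 15 of 32 differences were positive with a median of -0.033 beside -0.029 over all genes, and against pemetrexed 14 were positive with a median of -0.042 beside -0.016. No member passed in limma, 0% of all genes were called, and 0 members had an unadjusted p under 0.05 in either. Adjustment was over all genes within each comparison, and 2 pairs of treatments were compared. For Gjb6 both drugs minus gemcitabine was -0.33 (95% interval from the fit, -1.81 to 1.16) and both drugs minus pemetrexed was 0.015 (-1.65 to 1.68). For Mbp they were -0.28 (-2.34 to 1.78) and -0.28 (-2.59 to 2.02), and for Olig2 -1.36 (-3.87 to 1.15) and -1.57 (-4.37 to 1.24). With intervals this wide, a p that misses the threshold does not show that the treatments act alike. None of the wider astrocyte, precursor or myelin lists had a called gene in any drug comparison.

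**Figure D5:**
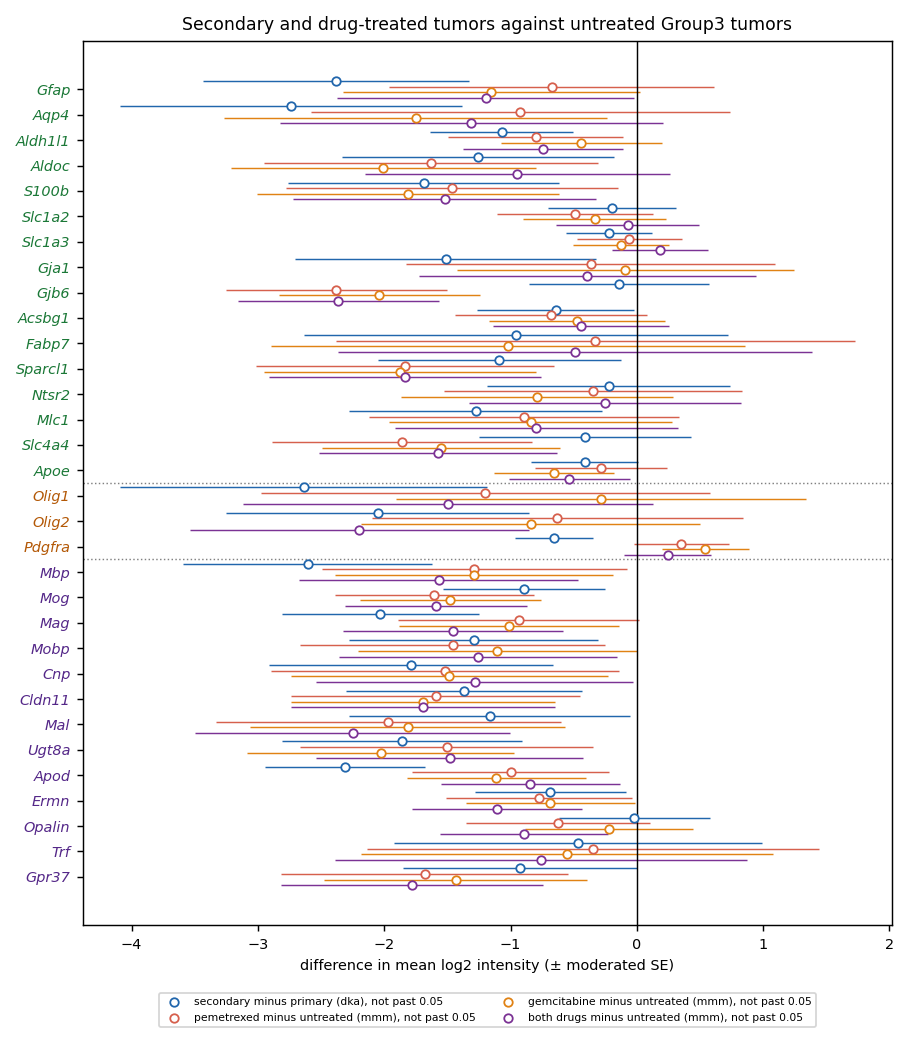
Points are the differences in mean log2 intensity of the 32 genes between secondary and primary dka tumors (blue) and between mmm tumors given pemetrexed (red), gemcitabine (orange) or both (purple) and untreated mmm tumors, with moderated standard errors as bars. All points are open because none passed an adjusted p of 0.05, nearly all lie left of 0, and Pdgfra lies right of 0 in the 3 drug comparisons.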

How the data were processed

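Per the submitters' processing notes, the deposited log2 values came from RMA (version not given) and Partek 6.6; genome build and batch handling are not given in the sources used here. Of 45141 probe sets 28898 had 1 gene symbol, 551 several and 15588 none, and 104 were controls. The brightest probe set of each gene was kept. A single limma model (3.58.1, R 4.3.3) covered the 26 arrays, with 9 means (group by title code), 12 contrasts, empirical Bayes variances and Benjamini-Hochberg adjustment over 17097 genes at 0.05. SE is moderated. The fit was tested on simulated data. The number of arrays limits precision.

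The members and lists were chosen with earlier results of these data known. All members may be named, with array values for those past 0.05 and a log2 difference of at least 1, and up to 3 genes a direction for other lists. Alternatives changed the probe set, features tested, scaling, dim-gene filter, arrays fitted, variance model, array weights, call rule and each array. Figures used Python 3.11.15 and matplotlib 3.10.9. Promoter sequences are RefSeq's.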

Additional observations from a re-analysis of the deposited data

Results flagged for a closer look

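Arrays far from the rest of their group were looked for in 64 checks, of which 5 stood out. The checks covered the members in the untreated Group3 tumors and the Group3 neurospheres, with both title codes pooled. Chance gives about 1 in 20 when checks are independent. These were not, since most flags fell on 1 array, so the count was not read against that rate. Values of the codes are not on the same footing, so a gap can hold a difference between codes. Aqp4 was 3.3230 in dka Group3 tumor 2, with the other untreated tumors between 8.8194 and 10.1117. In mmm Group3 neurosphere 4 Gja1 was 4.9289, with the nearest Group3 neurosphere at 10.1058. On the same array Fabp7 was 6.2184 (nearest 12.3907), Olig1 6.8763 (nearest 11.7674) and Olig2 5.3247 (nearest 9.5441).

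The tumor against neurosphere difference differed between mmm and dka for 4 of the 32 members by the interaction in limma. Of all genes 9.17% were called (4.36% higher and 4.80% lower). Code and any difference between the tumors themselves cannot be told apart. For Gjb6 the mmm difference minus the dka difference was 4.4117 (limma adjusted p = 0.0148). For Acsbg1 it was 3.7005 (adjusted p = 0.018), from -0.21 under mmm and -3.91 under dka. For Mlc1 it was 4.8018 (adjusted p = 0.0452), from 0.19 and -4.61. For Olig2 it was 6.0012 (adjusted p = 0.0381), from 1.87 and -4.14.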

How the results depend on the processing

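Of 820 alternative values of the 54 member calls, 703 kept their direction and their call, 117 lost the call and 0 reversed. Of the calls, 26 were kept in every alternative that fitted their gene. Array weights gave 17 called members for Group3 against Trp53 Cdkn2c neurospheres (11 without weights), with 30.3% of all genes called (22.6% without). They gave 7 for the interaction (4 without, 15.2% of all genes against 9.17%). For tumors against Trp53 Cdkn2c neurospheres they gave 7 (4 without, 21.0% against 15.6%). Gemcitabine had 12 (0 without, 22.9% against 0%). Secondary against primary tumors and both drugs had 1 each (0 without), with 3.47% against 0.538% and 3.06% against 0.0760%. Weights thus raised the share of all genes called too. With dim genes left out, 5 of 20 members were called for mmm tumors against neurospheres (14 of 32 otherwise). These were Apod, Aqp4, Mbp, Slc1a3 and Ugt8a. The other members called there were left out as dim, so their calls were not tried in that fit. The share of all genes called was not worked out for that fit or with single arrays left out. Leaving out Group3 neurosphere 7 throughout, chosen after seeing the data, gave 2 for the interaction. In comparisons that do not hold that array, it lost Slc1a2 for Group3 against Trp53 Cdkn2c neurospheres and Sparcl1 for dka tumors against Group3 neurospheres. Apod was lost for dka tumors against Trp53 Cdkn2c neurospheres. Fitting the arrays of 1 code alone lost Slc1a3 and Aldh1l1 for mmm tumors against neurospheres. It also lost Apod for dka tumors against Trp53 Cdkn2c neurospheres. For the interaction, a fit of its own groups alone lost Mlc1 and Olig2. Causes were not tested.

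Leaving out 1 array at a time gave 6 to 8 members for the neurosphere comparison, 6 to 10 and 4 to 15 for tumors against neurospheres under dka and mmm, 0 to 11 for the interaction, 1 to 7 for tumors against Trp53 Cdkn2c neurospheres, 9 to 10 for secondary tumors against neurospheres, 0 to 1 for gemcitabine and 0 to 0 for the remaining 5. A lone array left in a group is assumed to vary like the other groups. Quantile scaling moved the median over all genes by between -0.077 and 0.081. No paired analysis was possible because the labels carry no replicate numbers. Signals near the array median limit the sizes of differences.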
